A study of Mus musculus with 42 samples.

Results

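MicroRNA genes were examined in kidney RNA sequenced with long paired-end reads, a kind of library that captures precursors, host transcripts and introns rather than the mature microRNA itself. Members were the genes whose symbol starts with Mir and a digit or with Mirlet7, without the suffix hg of host genes, and whose mean over the 14 deposited expression columns was at least 1. The rule kept 71 of the 1102 microRNA genes among 56691 genes in the tables. It left out 3 host genes at that level, Mir22hg, Mir17hg and Mir142hg. Members were thus selected on the deposited expression levels, which are given as a description. The diet and time contrasts were not used by the rule.

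The mice were wild-type male C57BL/6, 6 weeks old when the diets began, and kept on a cycle of 12 h of light followed by 12 h of darkness. Controls ate standard chow for 14 weeks, and the treated mice ate a high-fat diet with 3% EpSA (epoxystearic acid, which forms when oils are heated) over the same weeks. Kidney RNA was collected at ZT 1, 5, 9, 13, 17, 21 and 25 (zeitgeber time, counted in hours from the start of light), and the labels list 42 libraries, 3 for each combination of diet and time. Each deposited column is 1 mean over the 3 mice of a diet and time, here called a pool. The spread between mice thus cannot be given, and errors below rest on the spread between the 7 times. Mice fed the high-fat diet alone were not analysed here, so the effects of fat and of EpSA cannot be told apart, and "EpSA" below stands for the whole treated diet.

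MicroRNAs are short RNAs that pair through their seed, bases 2 to 8, with messenger RNAs and lower their translation or stability. Most are cut from a long primary transcript by Drosha and Dgcr8 in the nucleus, exported as a hairpin and cut again by Dicer1, and many hairpins lie in introns of protein-coding host genes. In kidney, the miR-192, miR-30, miR-10 and miR-200 families are known as abundant mature microRNAs of the tubule. A library of total RNA in long reads holds little or none of the mature form, so a level given here is that of RNA covering the hairpin gene.

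The mature sequences of the members that the results turn on are printed from RefSeq (GRCm38.p6), which matched 65 of the 71 members. They show which product each gene would yield, with the seed in capitals.
mmu-miR-10a-5p: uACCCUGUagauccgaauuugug
mmu-miR-10a-3p: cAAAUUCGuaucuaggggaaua
mmu-miR-99a-5p: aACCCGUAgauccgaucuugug
mmu-miR-196a-5p: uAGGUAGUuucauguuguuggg
mmu-miR-192-5p: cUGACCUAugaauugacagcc
mmu-miR-30c-5p: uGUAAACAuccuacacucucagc
mmu-miR-186-5p: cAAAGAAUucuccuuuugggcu
mmu-miR-677-5p: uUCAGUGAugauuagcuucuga
mmu-miR-7a-5p: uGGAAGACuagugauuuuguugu
mmu-miR-5125: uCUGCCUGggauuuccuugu
mmu-miR-703: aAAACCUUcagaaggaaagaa
mmu-miR-6236: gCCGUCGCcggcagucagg
mmu-miR-1943-5p: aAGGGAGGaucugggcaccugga
mmu-miR-7016-5p: cAGGGAGGggagcgagaguag
Seeds were compared among the mature sequences of most matched members, and some matched members were left out. Among those compared, 1 seed was shared by several, AGGGAGG of miR-1943-5p and miR-7016-5p. The seeds of miR-10a-5p and miR-99a-5p are printed beside each other because both belong to the miR-10 and miR-100 group of related microRNAs, although their seeds are not identical.

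The 71 genes were short, from 56 to 139 bases with a median of 76, while the reads were 150 bases long. Their levels are in FPKM, fragments scaled to the length of the gene and the depth of the library, a unit that the deposited headers do not name. In genes of at most 200 bases the low values were read as steps of 1 or 2 fragments in 1 library. The steps were not sharp. In chow at ZT 9 the step of 1 fragment, as FPKM times length in kb, was 0.0714, and ran from 0.0612 to 0.0838 apart from its extremes. At least 99.4% of the low values in each pool lay in windows that spanned such a spread and 3% beyond it. Windows this wide can hold most low values by themselves, so this share does not show sharp steps. The depth and fragment estimates rest on this reading and are rough. The step gave an estimate of 13200000 to 16400000 counted fragments per library. By the same step, 1 fragment in 1 of the 3 libraries was worth between 0.164 and 0.407 FPKM, depending on the gene.

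Most of the members therefore rested on few fragments. The median member had an estimated 6.80 fragments per pool of 3 libraries, the lowest 2.77 and the highest 475. Of the 71 genes, 50 had fewer than 10 fragments per pool, 21 had at least 10 and 4 had at least 50. The variance of the fragments around the mean of each diet, divided by the mean over the 14 pools, is 1 for pure counting error. It had a median of 1.61 and leaves out the difference between diets. It was under 1.5 in 27 members and over 3 in 12, with 45.5 as the highest value.

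The threshold divided genes of similar level. Mir1192 had a mean of 1.04 FPKM, Mir7664 of 1.02 and Mir7211 of 1.01, just inside. Just outside were Mir374b with 0.961, Mir1957a with 0.956 and Mir7028 with 0.794. Across both diets 55 of the 71 members also reached 1 in each diet alone, 15 were under 1 in chow and 1 was under 1 in EpSA. Over the whole set, 52 members were above 0 in all 14 pools and 39 had a mean under 2.

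Positions in the genome are given as a description. In the GENCODE annotation of GRCm38, 48 members (67.6%) lay in an intron of a gene on the same strand, against 47.5% of all 1102 microRNA genes. Another 4 (5.63%) overlapped an exon of such a gene by at least 1 base, against 21.5% of all. The overlap was 90 of 117 bases for Mir8094 with Ddx39b, 61 of 73 for Mir7051 with Etfb, 12 of 88 for Mir5107 with Cd74 and 11 of 75 for Mir343 with Ercc2, the remainder being intron. A further 11 lay within a gene on the opposite strand only, and 8 lay between genes. Some of the intronic members, among them Mir7016, Mir7052 and Mir7085, lay directly beside an exon of the host, 0 bases away. Of all microRNA genes that overlapped an exon, 89.0% were at 0 in every pool, against 45.1% of the intronic ones, 54.7% of those opposite a gene and 68.6% of those between genes. The strand setting of the counting is not given in the sources used here, so RNA of a member and of a gene on the other strand cannot be told apart. How reads that overlap several genes were counted is not given either.

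The highest levels belonged to a handful of genes. Mir5125, in an intron of 824 bases of Srrm2 (a scaffold protein of the spliceosome) at chr17:23823291-23823369, ranged from 102 FPKM to 169 with a median of 132 in chow, and from 111 to 171 with a median of 131 in EpSA. The diets overlapped almost fully. Its mean was 324% of that of Srrm2 itself, whose mean was 42.4 FPKM. Because FPKM divides by gene length and the members are shorter than a read, this share does not compare amounts of RNA. Mir703 followed with a mean of 90.9 FPKM, from 57.6 to 193 in chow and from 52.0 to 107 in EpSA. Mir703 matches transcripts of Eef1a1, the translation elongation factor, and of Gm26377 and Gm26384. The highest identity among these matches was 98.2%, and the longest covered all 109 bases of Mir703. Which of these genes gave the best match was not recorded. Eef1a1 had the highest level among them, at 1483 FPKM. Fragments of Mir703 and Eef1a1 could thus be split by the counting, and the level of Mir703 is uncertain.

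Mir684-1 matches transcripts of Sumo2 and Mir684-2, and the best of these matches covers 85 of its 86 bases. Mir7051 overlaps an exon of Etfb (a subunit of the electron transfer flavoprotein) and shares 62 of its 73 bases with that transcript at its own locus. No GENCODE transcript of another gene matched any of the remaining 68 members over at least 80% of its length at 95% identity or more. Copies outside these transcripts were not searched for, so the levels of members such as Mir6236 may include other sequence. Mir1291 and Mir677 overlap annotated small nucleolar RNAs, so their levels may include those.

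Mir6236, between genes on chromosome 9, had a mean of 35.0 FPKM, from 30.0 to 54.4 in chow and from 25.7 to 39.9 in EpSA. Mir196a-1, in the Hoxb cluster upstream of Mir10a at chr11:96265164-96265265, had a mean of 32.4, from 25.8 to 38.7 in chow and from 26.9 to 40.0 in EpSA. An estimated 144 fragments per pool stood behind it. Mir1968, in an intron of Grtp1 (a growth hormone regulated TBC protein), had a mean of 12.0 FPKM and Mir186, in an intron of Zranb2 (a splicing factor), one of 7.25. Only 5 members reached a mean of 10.

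**Figure D1:**
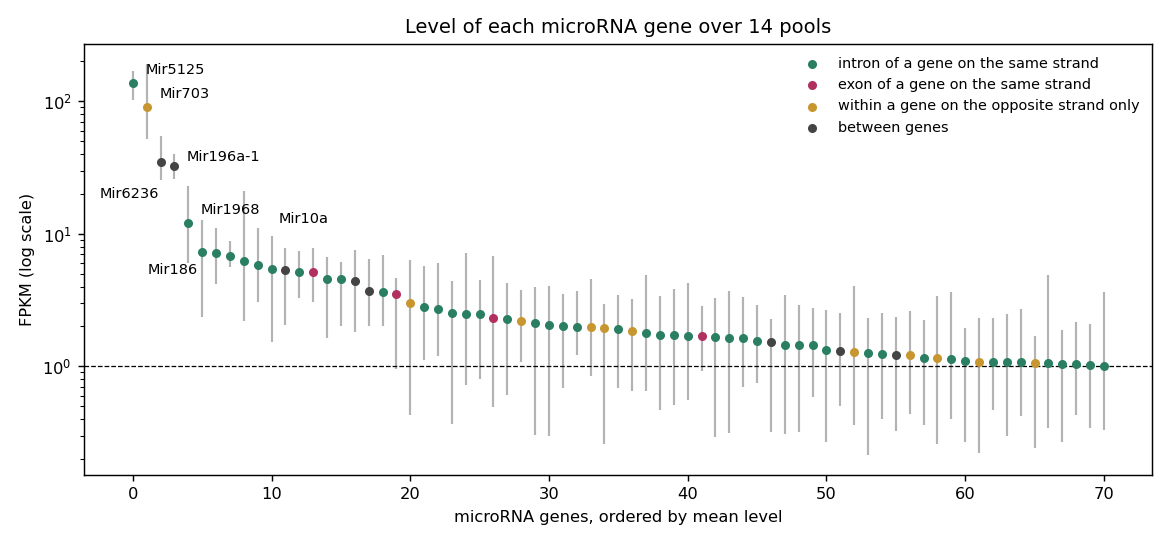
Mean level of each of the 71 microRNA genes over the 14 pools in FPKM on a log axis, with genes ordered along the x axis by mean, colours for position in the annotation, grey lines from the lowest pool above 0 to the highest, and a dashed line at the threshold of 1. Mir5125 (137 FPKM), Mir703 (90.9), Mir6236 (35.0) and Mir196a-1 (32.4) stand above the rest, and 39 genes lie between 1 and 2.

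A list of 39 well known microRNA genes was split, after the values were seen, into 29 genes and 10 others known mainly from blood and immune cells, liver or muscle. Of the 29, 28 were in the tables, 5 were members and 10 were at 0 in every pool. Of the other 10, 9 were in the tables, 0 were members and 6 were at 0. Over all 1102 microRNA genes, 6.44% were members and 60.5% were at 0 in every pool. The 5 members were Mir196a-1, Mir10a with a mean of 5.29 FPKM, Mir30c-1 with 1.90, Mir145a with 1.52 and Mir192 with 1.31. Mir192, the hairpin of a tubule microRNA, ranged from 0.503 to 2.51 in chow and from 1.06 to 1.51 in EpSA, so its pools overlapped. Among those of the 29 listed at 0 were Mir21a, Mir22, Mir30d, Mir126a, Mir204 and Mir215. The host transcript Mir22hg was at 31.0 FPKM while Mir22 was listed at 0.

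Some neighbours of members in the same cluster were under the mean of 1 that members had to reach, and their levels are given as a description. Mir27b and Mir24-1, which lie 154 and 650 bases from Mir23b, were at 0 in every pool, while Mir23b had a mean of 1.60 FPKM in chow and 2.63 in EpSA. Mir194-2 stood at 0.619 beside Mir192, Mirlet7c-1 at 0.657 beside Mir99a, and Mir374b at 0.961 beside Mir421. Each of these neighbours lies on the same strand as the member it was set beside.

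EpSA and chow were compared to ask whether the treated diet went with a change of microRNA genes. None of the 71 members passed the test, a limma fit on log2(FPKM + 1) with time as a factor and Benjamini-Hochberg adjustment at 0.05 over all 13344 genes tested. Few genes did: 3 of 13344 (0.0225%). At an unadjusted p under 0.05, 18 members were higher in EpSA and 1 was lower, 26.8% of the members against 19.1% of all genes. By direction, the background was 8.76% of all genes higher and 10.3% lower. Members that reach a mean of 1 only through EpSA enter that count, so it was also taken over the 55 with at least 1 FPKM in each diet. There 12 were higher and 1 was lower, 23.6% against 18.8% of the 13085 genes under the same filter. No member had pools that did not overlap between diets, against 0.892% of all genes.

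The sign of the difference was above 0 in 56 of 71 members (78.9%), with a median of 0.18 on the log2(FPKM + 1) scale. Among all genes tested, 46.1% were above 0 with a median of -0.01. Genes of low level lay above 0 more often in general, at 59.2% of all genes with a mean from 1 to under 2 and 31.5% of those with at least 10. Within these same ranges, members stood at 82.1% (32 of 39) and 60.0% (3 of 5). With at least 1 FPKM required in each diet, the range from 1 to under 2 held 17 of 23 members above 0 (73.9%), against 58.2% of all genes. Small nucleolar RNA genes, another class of short genes, were above 0 in 18 of 26, with a median of 0.11.

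The count was less lopsided among other microRNA genes and without 1 time. Among the 55 members with at least 1 FPKM in each diet, 41 (74.5%) were above 0, against 45.6% of all genes under that filter. Among the 364 microRNA genes above 0 in some pool that were no members, 184 (50.5%) were, close to the 53.5% of all genes above 0 in some pool. Without ZT 21, 45 of 71 members were above 0 and the median was 0.09. Leaving out any other time gave between 51 and 61.

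By time of day, the median member was higher in EpSA by 0.57 at ZT 21 and by 0.31 at ZT 5, but by no more than 0.05 at ZT 9 and ZT 17. The values by time are over all 71 members, with the 15 under 1 FPKM in chow, so the rule bears on them. At ZT 21, 51 of 71 members were above 0 and 24 differed by at least 1 on the log2 scale. The chow pool of that time had 8 members at 0, against 0 to 4 in the other pools. The all-gene median at ZT 21 was 0.07. As median absolute values, the members' diet differences ran from 0.31 at ZT 9 to 0.73 at ZT 21. For scale, pools of the same diet at the same hour of the cycle, ZT 1 and ZT 25, differed by a median absolute value of 0.44 in chow and 0.39 in EpSA over the members, against 0.12 over all genes in each diet. As signed values, the members' median of ZT 25 minus ZT 1 was 0.05 in chow and 0.20 in EpSA.

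**Figure D2:**
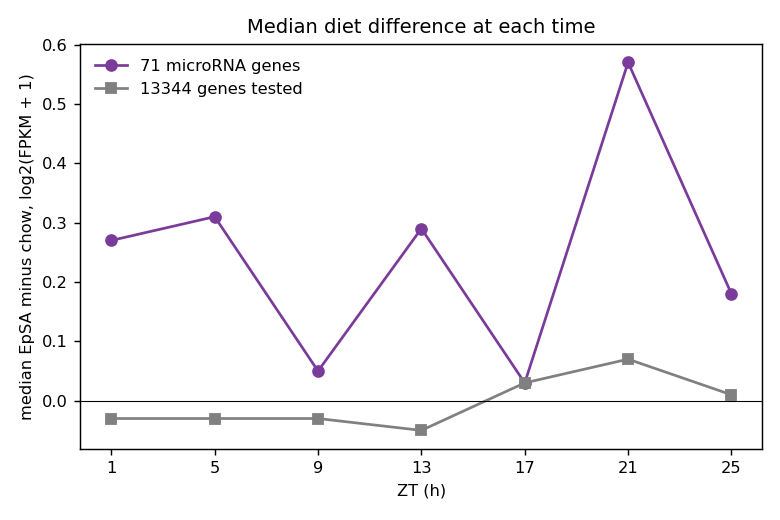
Median difference between EpSA and chow in log2(FPKM + 1) at each zeitgeber time in hours, for the 71 microRNA genes (circles) and the 13344 genes tested (squares). The members' median is highest at ZT 21 (0.57) and near that of all genes at ZT 17 (0.03 in each).

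All 71 members together summed to between 428 and 533 FPKM in the chow pools and between 444 and 499 in the EpSA pools, higher in EpSA at 5 of 7 times, with chow at ZT 21 as the highest pool of all. Without the 4 highest genes, the 67 others summed to between 145 and 170 FPKM in the chow pools and between 164 and 214 in the EpSA pools, higher in EpSA at 6 of 7 times. Both sums hold the 15 members that were under 1 FPKM in chow and the 1 under 1 in EpSA, so the rule bears on them. The sum of the 26 small nucleolar RNA genes was also higher at 6 of 7 times, from 66.7 to 100 in chow and from 75.9 to 102 in EpSA. Marker genes of kidney and other cells differed between diets too. The summed tubule and podocyte markers ranged from 2131 to 2369 FPKM in chow and from 1915 to 2279 in EpSA, lower in EpSA at 6 of 7 times, although 4 of the 8 genes had a higher mean in EpSA. The summed red blood cell markers, all 5 of which had a lower mean in EpSA, ranged from 373 to 699 FPKM in chow and from 303 to 427 in EpSA. The summed immune markers, likewise lower in 5 of 5, ranged from 158 to 903 in chow and from 160 to 212 in EpSA. The immune sum was higher in EpSA at 2 of 7 times, and in chow at ZT 17, 21 and 25 it was 158, 173 and 193. None of these markers was at 0 in every pool, and their part in the members' differences was not tested. In whole kidney, fewer cells of a type and less RNA per cell cannot be told apart.

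Mir10a had the highest difference on the log2(FPKM + 1) scale. With a pseudocount of 0.1 it was at 0.86, below Mir6395 at 1.49 and Mir677 at 0.96. Mir10a lies between Hoxb5 and Hoxb4 at chr11:96317165-96317274 on the plus strand, outside any annotated gene. Its hairpin of 110 bases is printed here with both mature arms in capitals, since it had the lowest p of the diet test among the members.
Mir10a hairpin: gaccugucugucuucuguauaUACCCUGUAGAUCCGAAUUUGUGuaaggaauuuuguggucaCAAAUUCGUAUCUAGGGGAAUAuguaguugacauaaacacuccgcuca
The Mir10a level in chow had 2.06 FPKM as its lowest, 3.54 as its median and 5.52 as its highest pool, and in EpSA 4.50, 6.96 and 7.78. Every EpSA pool was above the chow pool of its own time, yet the groups overlapped, because the EpSA pool at ZT 9 lay under the chow pools at ZT 13 and ZT 25. The mean was 3.80 FPKM in chow and 6.78 in EpSA.

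The difference of Mir10a was 0.72 ± 0.11 (SE from limma, 7 times) on the log2(FPKM + 1) scale. The SE from limma draws on the variance of all genes as well as on the 7 times. The adjusted p in limma was 0.058, which missed the threshold. An exact two-sided sign-flip test of the 7 time differences gave an unadjusted p of 0.0156, the smallest that 7 times allow. Mir10a was named for its difference, so this p and the fragment ratio below are given as a description only. The adjusted p passed the threshold at 0.048 with a mean-variance trend in limma and at 0.038 with a filter at a mean of 5. Over the alternatives with a fit across genes it ranged from 0.038 to 0.16. By the fragment estimate, 131 fragments in chow and 225 in EpSA gave a depth-scaled ratio of 1.76 (exact 95% interval 1.41 to 2.20, for counting error only).

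Genes beside Mir10a were looked at from a list of Hoxb and Hoxd genes, transcription factors that lay down position along the body axis and stay on in the adult kidney. Of 20 listed genes 16 were tested, 0 passed, 10 were above 0, and the median was 0.01. Hoxb4, the next gene downstream, ranged from 8.69 to 10.8 FPKM with a median of 9.86 in chow and from 10.7 to 13.9 with a median of 12.0 in EpSA. Its EpSA pool was higher at 7 of 7 times, with an overlap of 1 chow and 1 EpSA pool. The difference of Hoxb4 was 0.28 ± 0.06 with an adjusted p of 0.081 in limma.

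Hoxb3, further downstream, differed by 0.19 ± 0.05 with an adjusted p of 0.14 in limma, and it was higher in EpSA at 6 of 7 times. Hoxb2, beyond Hoxb3, differed by 0.00 ± 0.05, and the antisense transcripts Hoxb3os and Hoxb5os by 0.01 each. In the other cluster of the list Hoxd4 differed by 0.23 ± 0.06 with an adjusted p of 0.11, more than Hoxb3. Upstream, Hoxb5 to Hoxb9 had differences between -0.17 and -0.03, none of them past the test. Hoxb5, next to Mir10a on that side, ranged from 4.48 to 5.09 FPKM in chow and from 4.02 to 5.27 in EpSA, so its pools overlapped. Mir196a-1, also upstream, differed by 0.10 ± 0.09, or by 0.18 without ZT 1 and 0.05 without ZT 5. Centring the pools on the median gene or quantile normalization kept the sign of Hoxb4, Hoxb3 and Mir10a.

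**Figure D3:**
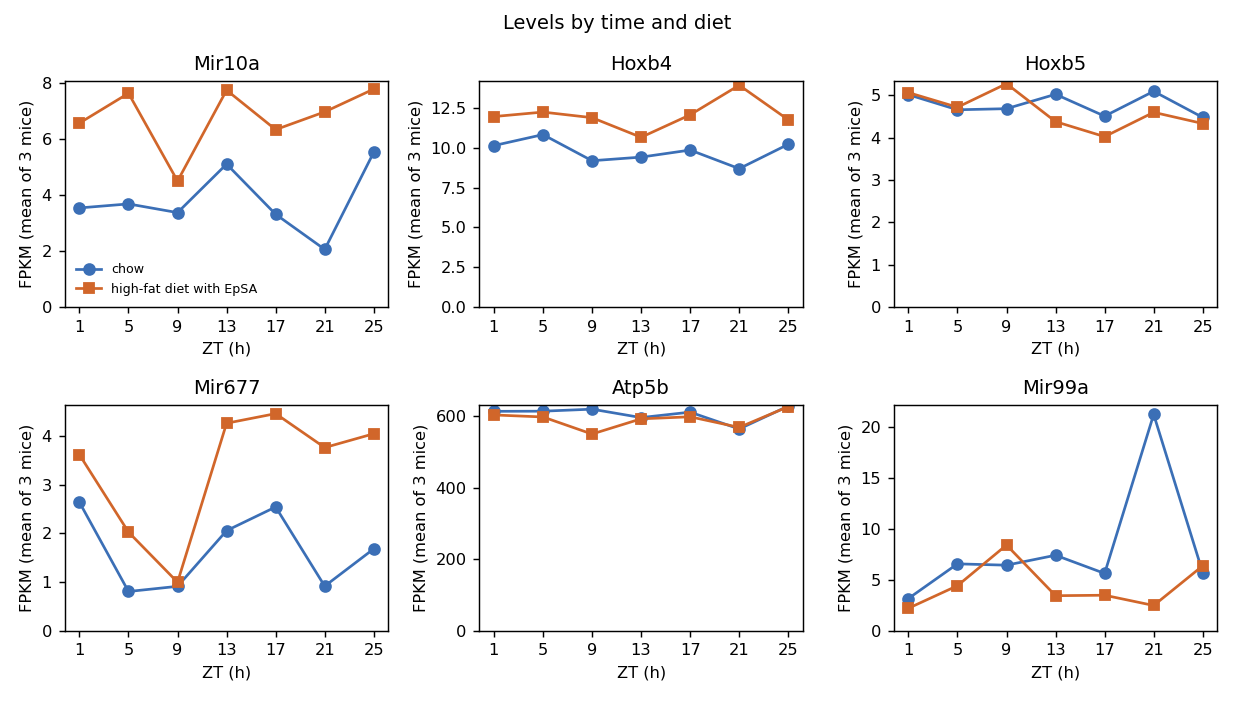
Level in FPKM (each point the deposited mean of 3 mice) against zeitgeber time in hours for Mir10a, its neighbours Hoxb4 and Hoxb5, Mir677 and its host Atp5b, and Mir99a, in chow (circles) and EpSA (squares). Mir10a and Mir677 are higher in EpSA at 7 of 7 times, while Hoxb5 and Atp5b overlap, and Mir99a has 1 chow pool, ZT 21, at 21.2 FPKM.

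Mir677 had the next highest difference on that scale. It lies in an intron of 229 bases of Atp5b, the beta subunit of the mitochondrial ATP synthase. In chow it ranged from 0.807 to 2.64 FPKM with a median of 1.68, and in EpSA from 0.997 to 4.46 with a median of 3.76. The groups overlapped, although each EpSA pool exceeded the chow pool of its time. The difference was 0.68 ± 0.13, with an adjusted p of 0.064 in limma. Estimated fragments were 40 in chow and 78 in EpSA, a depth-scaled ratio of 2.00 (exact 95% interval 1.35 to 3.01, for counting error only, while the variance over mean of its pools was 1.65). Mir677 too was named for its difference, so this ratio is given as a description only.

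Mir6395, opposite Saraf, was at 0 in 1 chow pool, and its means were 0.685 FPKM in chow and 1.48 in EpSA. Mir1898, in an intron of Zfr (a zinc finger RNA-binding protein), ranged from 1.52 to 6.63 in chow and from 4.02 to 9.55 in EpSA. Their differences of 0.62 ± 0.20 and 0.60 ± 0.25 had adjusted p of 0.16 and 0.23 in limma, and that of Mir1898 was 0.36 without ZT 21. In each, the groups overlapped.

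Higher in EpSA at 7 of 7 times were 5 members (7.04% against 3.81% of all genes): Mir10a, Mir677, Mir7016, Mir3058 and Mir7669. Mir7669 was under 1 FPKM in chow, and without such genes the count was 4 of 55 (7.27%, against 3.73% of all genes with at least 1 in each diet). The last 3 of the 5 are named because of that count, after their values were seen. Mir7016, in an intron of Tmem39b, had means of 1.44 FPKM in chow and 2.68 in EpSA, and a difference of 0.60 ± 0.10 with an adjusted p of 0.063 in limma. Mir3058, in an intron of Nudt4 (a diphosphoinositol phosphatase), had 2.86 and 4.46, and a difference of 0.48 ± 0.10 with an adjusted p of 0.075. Mir7669, in an intron of Ubap2l, had 0.865 and 1.46, and a difference of 0.44 ± 0.12 with an adjusted p of 0.11. Each of these had overlapping pools. Those of Mir7016 ranged from 0.297 to 3.36 FPKM in chow and from 0.647 to 4.03 in EpSA, on an estimated 1 to 13 fragments per pool.

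**Figure D4:**
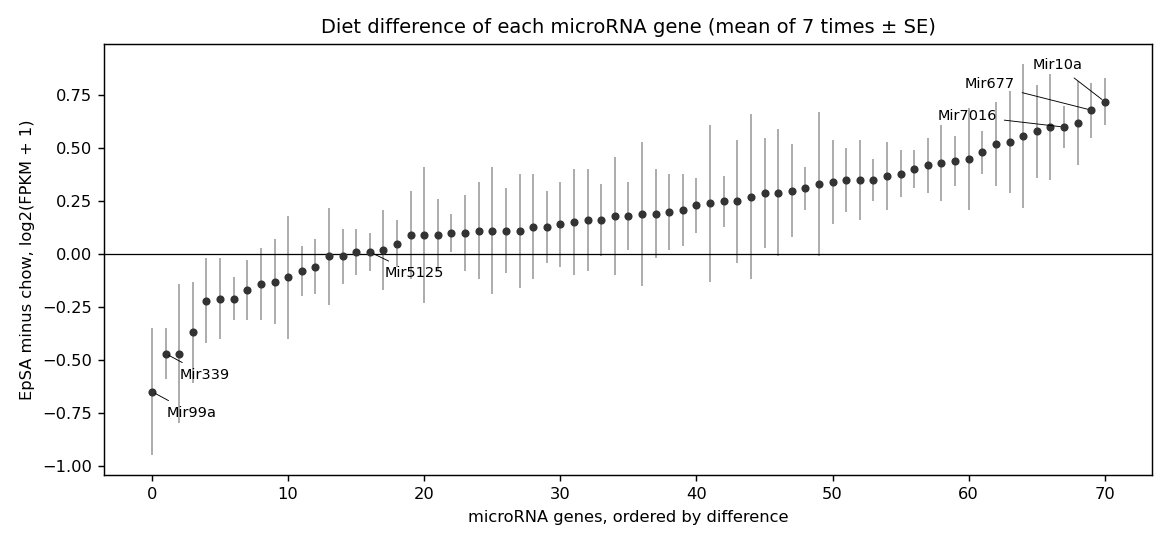
Difference between EpSA and chow in log2(FPKM + 1) for each of the 71 microRNA genes, ordered along the x axis, as the mean over 7 times with its standard error from limma. Of the genes, 56 lie above 0, from Mir99a at -0.65 to Mir10a at 0.72, and none passed the test over all genes.

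The lowest differences on the log2(FPKM + 1) scale were those of Mir99a, Mir5107, Mir339 and Mir1943. Mir99a, in an intron of its host transcript Mir99ahg, ranged from 3.17 to 21.2 FPKM with a median of 6.44 in chow and from 2.21 to 8.41 with a median of 3.49 in EpSA. The groups overlapped, and the chow pool at ZT 21 stood far above the rest. The difference was -0.65 ± 0.30, with an adjusted p of 0.28 in limma, and it was -0.31 without ZT 21. Mir99ahg itself was low, with means of 0.348 FPKM in chow and 0.340 in EpSA.

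Mir5107 overlaps an exon of Cd74 by 12 of its 88 bases. Cd74 encodes the invariant chain of MHC class II in antigen-presenting cells. Mir5107 ranged from 0.493 to 6.77 FPKM in chow and from 0.557 to 2.44 in EpSA, with a difference of -0.47 ± 0.33 and an adjusted p of 0.47 in limma, or -0.27 without ZT 9, -0.31 without ZT 1 and -0.75 without ZT 25. Cd74 ranged from 99.0 to 796 in chow and from 101 to 133 in EpSA, with 796 at ZT 13 and 604 at ZT 1 as its highest chow pools. Over the chow pools Mir5107 had 6.77 at ZT 1, 4.02 at ZT 9 and 3.92 at ZT 13. The summed immune markers given above include Cd74, and their part in the level of Mir5107 was not tested.

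Mir339, in an intron of 3110082I17Rik, was the 1 member lower in EpSA at an unadjusted p under 0.05. It ranged from 1.15 to 4.28 FPKM in chow and from 0.560 to 2.19 in EpSA, with overlapping pools. The difference was -0.47 ± 0.12 with an adjusted p of 0.11 in limma, and it was lower at 6 of 7 times. Mir1943, in an intron of Tmem184b and sharing its seed with Mir7016, differed by -0.37 ± 0.24 with an adjusted p of 0.43, opposite in sign to Mir7016, and by -0.21 without ZT 1.

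MicroRNA genes in introns were set against their hosts to ask whether the RNA of both differed alike between diets. Of the 46 intronic members whose host was tested, 38 were above 0, while 21 of the hosts were (45.7%, against 46.1% of all genes). In 18 pairs both were above 0. The member's difference exceeded the host's in 35 of 46 pairs. The rule itself bears on these counts, since 9 of the 46 members were under 1 FPKM in chow and reached the mean of 1 only through EpSA. Among the 36 pairs whose member had at least 1 in each diet, 29 members and 16 hosts were above 0, and the member's difference exceeded the host's in 26. At the level of the genes, 41 of 46 members stood below their host, at a median of 18.8% of the host's FPKM. Those above it were Mir5125, Mir8116, Mir5119, Mir421 and Mir339. As said for Mir5125, FPKM of a gene shorter than a read and of a long host do not compare amounts of RNA.

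**Figure D5:**
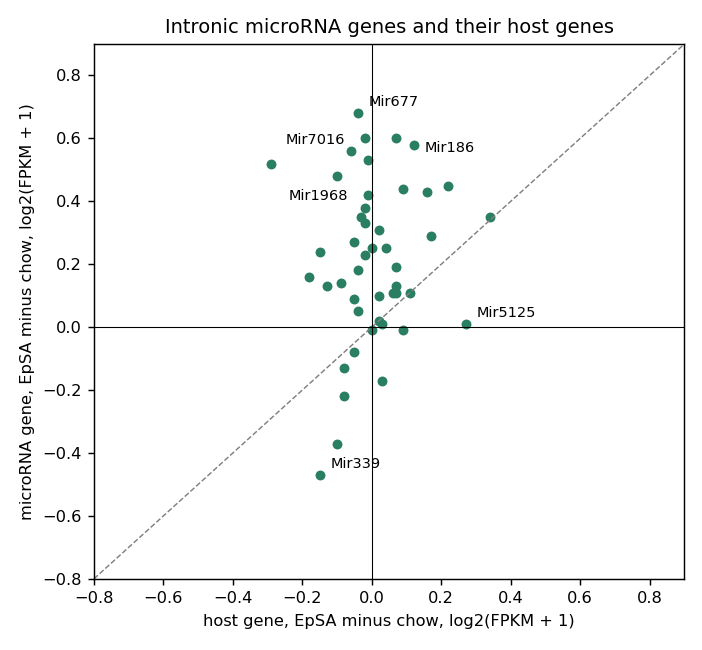
Diet difference of 46 intronic microRNA genes against that of their host genes, both as EpSA minus chow in log2(FPKM + 1), with a dashed line where they would be equal. Points lie above the line in 35 pairs, and Mir677 and Mir1968 have hosts near 0.

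For 13 named pairs the difference between member and host was tested by exact two-sided sign flips over the 7 times, with 0.0156 as the smallest p possible. None passed after adjustment over the 13 pairs, and the lowest adjusted p was 0.102. Of these members, 5 (Mir677, Mir1898, Mir5107, Mir339 and Mir1943) were named for a high or low diet difference, so the gap to their host is given as a description only. The diet difference of Mir677 exceeded that of Atp5b by 0.72 ± 0.13 on the log2 scale, in the same direction at 7 of 7 times. Atp5b had means of 606 FPKM in chow and 590 in EpSA.

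The diet difference of Mir1968 exceeded that of Grtp1 by 0.43 ± 0.18 (exact p = 0.0156), also at 7 of 7 times. In chow Mir1968 ranged from 6.00 to 12.3 FPKM with a median of 10.7, and in EpSA from 10.6 to 22.8 with a median of 12.2. Grtp1 had means of 14.9 and 14.8. For Mir5107 and Cd74 the gap was 0.63 ± 0.25, above 0 at 6 of 7 times. In the opposite direction, Mir5125 differed by 0.01 while Srrm2 differed by 0.27, a gap of -0.26 ± 0.09 (exact p = 0.0625).

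The proteins that cut and carry microRNAs were taken as a list of 28 genes, of which 24 were tested. None passed, 15 were above 0 (62.5%, against 46.1% of all genes) and the median was 0.04. At an unadjusted p under 0.05, 4 were higher and 2 lower. Ddx5, a helicase of the nuclear microprocessor complex, ranged from 164 to 204 FPKM in chow and from 193 to 240 in EpSA, higher at 7 of 7 times with overlapping pools, by 0.26 ± 0.05 (adjusted p = 0.064 in limma). Its relative Ddx17 differed by 0.18 ± 0.06 (adjusted p = 0.15). Drosha, the nuclease of that complex, was lower at 7 of 7 times, by -0.13 ± 0.04 (adjusted p = 0.15), and Dicer1 differed by 0.09 ± 0.05. Ago2, which holds the mature strand, differed by 0.05 ± 0.07. Tnrc6a, a scaffold of the silencing complex that binds Argonaute proteins, had a median of 9.35 FPKM and a highest pool of 9.65 in chow, and in EpSA ranged from 9.60 to 12.0 with a median of 10.4, higher at 7 of 7 times with overlapping pools, by 0.20 ± 0.06 (adjusted p = 0.15 in limma). Mir17hg, the only host transcript among 3 tested that was under an unadjusted p of 0.05, differed by 0.13 ± 0.05 (adjusted p = 0.22).

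Rhythm over the day was tested within each diet by a cosine of 24 h on log2(FPKM + 1), with 7 pools per diet. The fit holds a cosine and a sine term, and the amplitude combines both. Each ± given with an amplitude below is the SE of the cosine term alone, not of the amplitude. No member passed after adjustment over 13344 genes in limma, in chow (9 genes, 0.0674% of all) or in EpSA (7 genes, 0.0525%). Without adjustment, 10 members were under 0.05 in chow (14.1%, against 10.4% of all genes) and 14 in EpSA (19.7%, against 8.52%). The test of a difference in rhythm between diets called 0 of 13344 genes (0%), with 4 members under 0.05 unadjusted, 5.63% against 4.63% of all genes.

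Mir7651, in an intron of Zmiz2 (a coregulator of transcription), had the lowest p in chow. Its chow level was highest at ZT 9, at 5.71 FPKM, and lowest at ZT 21, at 1.11, while in EpSA it was highest at ZT 5, at 4.55, and lowest at ZT 9, at 1.43. The chow cosine had an amplitude of 0.82 ± 0.08 on the log2 scale, a peak at 7.0 h and an adjusted p of 0.091 in limma. The difference of its rhythm between diets had an unadjusted p of 0.0094 and an adjusted p of 0.82. The host Zmiz2 stayed between 12.9 and 16.7 FPKM in chow.

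Mir697, in an intron of Sf3a3 (a splicing factor subunit), was highest in chow at ZT 17, at 2.66 FPKM, with 0.753 as its lowest pool. In EpSA its highest pool was ZT 21, at 2.89, and its lowest ZT 13, at 1.28. The chow cosine had an amplitude of 0.50 ± 0.09 and an adjusted p of 0.22, and the difference between diets an adjusted p of 0.82. Mir8116, in an intron of the acetylcholinesterase gene Ache, peaked in chow at ZT 13 with 11.1 FPKM, the time at which Ache was also highest, at 1.61. Its chow amplitude was 0.52 ± 0.12 with an adjusted p of 0.31.

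In EpSA the lowest p belonged to Mir6395, with an amplitude of 0.43 ± 0.07 and an adjusted p of 0.40, Mir6397, with 0.47 ± 0.08 and 0.42, and Mir5107, with 0.47 ± 0.09 and 0.47. Over the EpSA pools Mir6395 had 0.747 FPKM at ZT 5 and 2.31 at ZT 17. Mir344d-1 was the third gene by p of the difference in rhythm, at 0.022 unadjusted, its cosine peaking at 8.9 h in chow and, in EpSA, at 0.3 h. Mir10a had no low p in either diet, with adjusted p of 0.81 in chow and 0.82 in EpSA.

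The authors' deposited table of rhythm statistics gave no member a meta2d q under 0.05 in either diet, with 0% of all genes under it in chow and 0.00529% in EpSA. Its lowest member q was 0.57 in chow, for Mir697, and 0.41 in EpSA, for Mir6395. At a deposited meta2d p under 0.05 there were 2 members in chow (2.82%, against 11.8% of genes with a mean of at least 1) and 4 in EpSA (5.63%, against 9.82%). In the authors' deposited table Mir697 in chow had p = 0.011, a phase of 16.2 h and an amplitude of 0.653 of its baseline. In the authors' deposited table Mir6395 in EpSA had a meta2d p-value of 0.0019, a phase of 17.3 h and an amplitude of 0.465 of its baseline.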

How the data were processed

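The deposited files are 2 tables, 1 per diet, each with 7 expression columns. The treated table carries another abbreviation in its headers, and the sample descriptions tie it to EpSA. Its deposited values of expression were read as FPKM, a unit absent from the headers, and each column as the authors' mean over 3 mice, because the thousandths are always 0, 3 or 7. Aligner, counting tool, build and strand setting are not given in the sources used here. Rhythm p-values, q-values, phases in hours and the ratio of amplitude over baseline were deposited by the authors from meta2d and JTK, per the file headers. Libraries were read as pairs of 150 bases from total RNA, per the labels' protocols.

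Gene identifiers were matched to symbols (52073 of 56691), and positions come from a GENCODE annotation of GRCm38. Genes with a mean of at least 1 (13344) were fitted on log2(FPKM + 1), pseudocount 1, with limma 3.58.1 in R 4.3.3. Fold changes on this scale understate those of low genes. Time entered the diet model as a factor (6 residual degrees of freedom), each rhythm model a cosine and sine of 24 h (4) and the difference of rhythm their interaction with diet (8), with Benjamini-Hochberg adjustment at 0.05. ZT 25 was entered at the phase of ZT 1. P-values measure the spread between times, not between mice. The SE of a diet difference or cosine term is that of limma, in which the variance of each gene is drawn toward that of all genes. The fits were tested on simulated data. Depth was estimated from the steps of low values in short genes. Copies were searched with blastn 2.17.0 among GENCODE transcripts at 95% identity over 80% of the length. Other steps used Python 3.11.15, pandas 2.3.3 and numpy 2.4.6, with matplotlib 3.10.9 for plots and scipy 1.17.1 for exact tests.

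The members, gene lists and tests were chosen with earlier results of these data known. Members were named by these rules: any passing the diet test, the 6 highest means, the 4 highest and 4 lowest differences, the 3 lowest p per rhythm test and those at the threshold. Other members named are from the kidney list or were named after their values were seen. Alternatives changed the pseudocount, filter, scaling, variance model, rhythm statistic and rule, or left out each time. The counts over genes with at least 1 FPKM in each diet were chosen after seeing the data.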

Additional observations from a re-analysis of the deposited data

Results flagged for a closer look

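In 3 of 44 sets of 7 pools of the named members, 1 pool lay far from the other 6 by Dixon's test, where chance gives 2.20 on average. Mir703 in chow had 192.943 FPKM at ZT 21, with 102.057 as the next highest pool. Eef1a1, with a transcript that matches Mir703, was at 1489 in that pool and between 1470 and 1529 in the other chow pools. Mir6236 in chow had 54.427 FPKM at ZT 1, with 37.25 as the next highest pool. Mir99a in chow had 21.227 FPKM at ZT 21, with 7.413 as the next highest pool, and its host transcript Mir99ahg was at 0.460 there. Without the time of that pool, the diet difference in log2(FPKM + 1) was -0.03 in place of -0.21 for Mir703, -0.11 in place of -0.21 for Mir6236 and -0.31 in place of -0.65 for Mir99a. What set these pools apart was not tested.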

How the results depend on the processing

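The count of members called between diets was 0 in most settings. It was 1, Mir10a, with the filter at a mean of 5, 1 with a mean-variance trend in limma, and 1 with a trend and robust fit chosen after seeing the data. A rule at a mean of at least 2 would have kept 32 members in place of 71. The rhythm counts, the deposited statistics and the host pairs gave 0 in every setting run.

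Among 318 values of the 22 named members under alternatives, 297 kept their direction and side of the threshold, 9 passed a threshold that the reported value missed and 12 reversed, all in genes with differences near 0. Of the 9, 3 were fits of Mir10a and 6 were exact sign flips with an unadjusted p, for Mir10a, Mir677, Mir339, Mir6397, Mir1968 and Mir186. With single times left out, Mir1192 ranged from -0.07 to 0.24, Mir344d-1 from -0.02 to 0.28, Mir5125 from -0.05 to 0.06, Mir7211 from -0.09 to 0.33 and Mir7664 from -0.13 to 0.27. With a pseudocount of 0.1, Mir7211 was at -0.06. The cause was not tested. No paired analysis was possible because the deposited columns are means over the mice and carry no replicate numbers, so mice could not be paired. Pools were compared within times throughout. Few fragments limit most members: 50 of 71 had under 10 per pool.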

Other observations

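The diet differences of some members with well known mature products, not given above, are listed here as values, chosen after they were seen. Mir7-1, in an intron of Hnrnpk (an RNA-binding protein), ranged from 4.19 to 8.35 FPKM in chow and from 6.83 to 11.1 in EpSA, and differed by 0.38 ± 0.11 with an adjusted p of 0.13 in limma. It was higher in EpSA at 6 of 7 times, with overlapping pools. Mir186 ranged from 2.34 to 7.75 in chow and from 4.88 to 12.6 in EpSA, and differed by 0.58 ± 0.22 with an adjusted p of 0.21, or by 0.36 without ZT 21. Mir23b differed by 0.53 ± 0.24 (adjusted p of 0.26), Mir365-2 by 0.37 ± 0.16 (0.25), Mir30c-1 by 0.23 ± 0.13 (0.36) and Mir26b by 0.24 ± 0.37 (0.76). Mir199a-1 differed by 0.19 ± 0.21 (0.65), Mir145a by 0.16 ± 0.24 (0.75) and Mir192, the tubule microRNA gene, by -0.06 ± 0.13 (0.83). None of them passed the test over all genes.

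The EpSA pool at ZT 9 held adrenal markers that summed to 108 FPKM, against 1.08 to 1.66 in the other 13 pools. Without that time, 55 of 71 members were above 0 between diets, with a median of 0.24. That count holds the 15 members under 1 FPKM in chow, so the rule bears on it.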
